A study of Mus musculus with 12 samples.

Results

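The mitochondrial ribosomal proteins are the protein parts of the ribosome inside mitochondria, and here they are all genes whose symbol in the array platform's annotation begins with Mrpl (large subunit) or Mrps (small subunit) followed by a digit. This name rule, which uses no measured value, found 78 of the 19437 genes on the array, 49 of the large and 29 of the small subunit, on 129 of 40928 probes. Gastrocnemius, a calf muscle, was taken from male mice of 12 weeks on a C57BL6/J x sv129 background. RNA of a knockout was labelled with Cy5 and RNA of its reference with Cy3 on each of 12 Agilent arrays, so each value is a ratio and no level. The PGC-1alpha -/- mice lack the coactivator PGC-1alpha in the whole body. The PGC-1beta f/f/Mlc1fCre mice carry a floxed PGC-1beta gene and a Cre transgene driven in fast muscle fibres by the Mlc1f promoter, so other cells of the muscle keep the gene. The double knockout, PGC-1alpha-/- beta f/f/Mlc1fCre, combines both. The PGC-1beta f/f controls carry the floxed gene without Cre. By their titles, 3 arrays each set the PGC-1alpha -/- (alpha arrays), the PGC-1beta f/f/Mlc1fCre (beta arrays) and the double knockout (double arrays) against PGC-1beta f/f controls, and 3 set the double knockout against PGC-1alpha -/- mice (direct arrays). The labels do not say how many mice supplied the RNA. The p-values here thus reflect only how far arrays lie from their group means, which may be technical. For each gene this spread is shared by all 4 groups.

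The mitochondrial ribosome translates the few messages encoded in mitochondrial DNA, all of them for core subunits of the respiratory chain and ATP synthase, while its own proteins are encoded in the nucleus, made in the cytosol and imported. Some of its proteins descend from those of the bacterial ribosome, and others are found only in mitochondria. PGC-1alpha and PGC-1beta are transcriptional coactivators that are known to act on nuclear genes of mitochondria through the factors NRF1 and GABPA and the estrogen-related receptors, and skeletal muscle is one of the tissues in which they are best studied.

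Promoters are shown for members on which the results turn, from RefSeq's GRCm38.p6, each 300 bases from 250 before to 50 after an annotated start. A promoter was found for 69 of the 78 members, in 75 windows. Each window was searched on both strands for an NRF1 motif (GCGCANGC), an ETS motif of the kind GABPA binds (CCGGAAG) and an estrogen-related receptor motif (TNAAGGTCA), where N is any base; matches may overlap each other. The promoter of Mrpl12, at chr11:120484387-120484686 on the plus strand, holds the NRF1 motif, shown in capitals, 79 bases before the start. The promoter of Mrps23, at chr11:88204138-88204437 on the plus strand, holds the ETS motif in capitals just after the start. The promoter of Mrps36, at chr13:100744610-100744909 on the minus strand, holds none of the 3 motifs in this window.
Mrpl12: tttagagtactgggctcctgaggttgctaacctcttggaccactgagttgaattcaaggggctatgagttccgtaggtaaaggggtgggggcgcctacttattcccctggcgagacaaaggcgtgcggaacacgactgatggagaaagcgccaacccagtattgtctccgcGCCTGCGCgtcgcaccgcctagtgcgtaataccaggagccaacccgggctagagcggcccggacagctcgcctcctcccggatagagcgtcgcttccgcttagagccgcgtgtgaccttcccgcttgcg
Mrps23: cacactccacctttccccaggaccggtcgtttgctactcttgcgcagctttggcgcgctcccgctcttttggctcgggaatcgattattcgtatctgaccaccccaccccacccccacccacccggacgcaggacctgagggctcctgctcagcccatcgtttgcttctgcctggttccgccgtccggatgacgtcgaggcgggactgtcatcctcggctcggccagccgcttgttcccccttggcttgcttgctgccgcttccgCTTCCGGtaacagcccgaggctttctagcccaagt
Mrps36: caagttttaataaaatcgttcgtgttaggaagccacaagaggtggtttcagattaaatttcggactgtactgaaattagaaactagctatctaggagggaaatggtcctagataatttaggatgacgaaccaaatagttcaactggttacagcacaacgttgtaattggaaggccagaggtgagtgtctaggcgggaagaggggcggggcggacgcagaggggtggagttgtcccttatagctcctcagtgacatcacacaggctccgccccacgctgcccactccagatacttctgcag

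Mrps11 (chromosome 7, 78783131 to 78792988) and Mrpl46 (chromosome 7, 78775341 to 78783089) lie head to head with 41 bases between their annotated starts, Mrps11 on the plus and Mrpl46 on the minus strand. No other pair of members lies within 10000 bases. Their promoter windows share 141 bases, so 1 window is printed, that of Mrps11 at chr7:78782881-78783180 on the plus strand, with the bases between the starts in capitals. Neither of the 2 windows holds any of the 3 motifs.
Mrps11 and Mrpl46: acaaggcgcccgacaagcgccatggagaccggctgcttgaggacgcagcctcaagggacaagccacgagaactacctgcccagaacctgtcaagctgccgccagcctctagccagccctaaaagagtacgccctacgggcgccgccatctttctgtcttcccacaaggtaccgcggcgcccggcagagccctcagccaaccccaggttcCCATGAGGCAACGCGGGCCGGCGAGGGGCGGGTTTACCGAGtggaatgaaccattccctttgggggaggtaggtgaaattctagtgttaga

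Over all windows of the members, 29.3% (22 of 75) held the NRF1 motif, against 9.95% of the 32851 promoters in the table and 17.4% of the promoters of the genes tested. The ETS motif was in 34.7% (26 of 75), against 8.86% of all promoters and 15.5% of those of the genes tested. The estrogen-related receptor motif was in 0 of 75 windows and in 1.28% of all promoters. These are matches of letters in a short window and not known binding sites.

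Every ratio is given as a log2 value after each array was centred on its median gene, so a value of 0 means the same shift as the median gene and not an unchanged amount of RNA. The third beta array was left out of the comparisons because the authors' own deposited beta means leave it out, and 11 arrays remained. Over all genes its ratios correlated at -0.31 with those of beta 1 and at 0.02 with those of beta 2. Its correlations with the 11 other arrays ran from -0.31 to 0.275. Double 3, which was kept, correlated at 0.03 with double 1 and at 0.24 with double 2. Titles and channel labels name different knockouts on 6 of the 12 arrays, and the groups follow the titles, as the authors' deposited means do. Ppargc1a, the gene of PGC-1alpha, was lower on the alpha arrays, with a log2 ratio of -1.77 (adjusted p = 0.00478), and on the double arrays, with -1.33 (adjusted p = 0.0432). Ppargc1b, the gene of PGC-1beta, had a log2 ratio of 0.77 on the beta arrays (adjusted p = 0.326) and of 0.28 on the double arrays (adjusted p = 0.680). These values do not show the loss that the titles name. Ppargc1b was higher on the alpha arrays (1.14, adjusted p = 0.0289) and lower on the direct arrays (-1.17, adjusted p = 0.0306). The reference of the direct arrays is also PGC-1alpha -/- RNA, though whether from the same mice is not given. The low direct ratio is thus not taken as separate evidence of loss in the double knockout. Whether the probes of Ppargc1b lie in the floxed part is not given in the sources used here. The beta and double arrays are therefore named by their titles throughout. Of the 8 genes taken as marks of muscle fibres all were measured, and ratios cannot show their levels. In whole muscle, fewer cells of a type and less RNA per cell cannot be told apart.

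Of the 78 members, 76 could be tested, which needed usable values on 2 or more arrays in each group, 47 of the large and 29 of the small subunit. Mrpl4 and Mrpl34 were not tested; on the alpha arrays their log2 ratios averaged 1.42 and 0.05, and on the direct arrays -1.37 and -0.73. Usable values made up 89.6% of the member probe values, against 65.7% over all probes, and 69 members had a value on all 11 arrays.

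In muscle named PGC-1alpha -/- by the array titles, some mitochondrial ribosomal protein genes were higher and a few lower than in floxed controls. Of the 76 members 18 passed the test at an adjusted p under 0.05 (23.7%), 14 higher and 4 lower, against 14.9% of the 11755 genes tested, of which 9.98% were higher and 4.91% lower. The median log2 ratio of the members was 0.24, against 0.09 for all genes tested. With each array centred on the genes measured on all 11 arrays instead, 13 members were higher and 7 lower (26.3%, against 15% of all genes). The members' median was then 0.07, against -0.08 for all genes tested. Leaving out alpha 1, alpha 2 or alpha 3 left 3 (4.05%), 8 (10.8%) and 2 (2.63%) members called, against 3.01%, 5.46% and 2.42% of all genes; without alpha 3 the share was thus close to that of all genes.

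The largest rise was in the small subunit. Mrps11, whose bacterial counterpart sits on the platform of the small subunit where messenger RNA leaves, had log2 ratios of 2.38, 1.62 and 1.84 on the alpha arrays, a mean of 1.95 ± 0.39 (SD, n = 3), or 3.86-fold (adjusted p = 0.00226). Mrps23, a protein of the small subunit with no bacterial counterpart, had 1.51, 1.64 and 1.92, or 3.23-fold (adjusted p = 0.00251). All 3 arrays lay far above 0 for both genes. Mrps7, which lies in the head of the small subunit, had 1.69, 1.42 and 1.41 (2.84-fold, adjusted p = 0.0110). Mrps35, another protein found only in mitochondria, had 1.62, 0.58 and 1.22 (2.20-fold, adjusted p = 0.0277), so its arrays varied more than those of Mrps7. Mrps10 (0.99) of the small subunit also rose, as did Mrps18a (0.98), which sits in the large subunit despite its name.

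In the large subunit, Mrpl2, whose bacterial counterpart lies by the peptidyl transferase centre, had log2 ratios of 1.81, 1.30 and 1.60 (2.97-fold, adjusted p = 0.0127). Mrpl15 had 2.15, 0.78 and 1.23 (2.61-fold, adjusted p = 0.0370). The first alpha array was the highest for both. Mrpl28 had 1.04, 1.09 and 1.20 (adjusted p = 0.00651), but its 2 probes averaged 0.38 and 1.84, and the call came from the second alone. Mrpl45, which anchors the ribosome to the inner membrane, had 0.98, 0.75 and 1.46 (adjusted p = 0.0167). Its probes were unlike too: 1 gave 1.58, 1.67 and 2.44 and the other 0.37, -0.17 and 0.48. Mrpl37, found only in mitochondria, had 0.72, 1.53 and 0.99 (adjusted p = 0.0207). Mrpl12, the counterpart of the bacterial stalk protein that recruits translation factors and also a partner of mitochondrial RNA polymerase, had 1.14, 0.77 and 0.94, or 1.93-fold (adjusted p = 0.0180). Mrpl43 (1.00) and Mrpl48 (1.11) complete the members that rose.

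Fewer members fell on the alpha arrays. Mrpl41, found only in mitochondria, had log2 ratios of -0.82, -1.14 and -1.09 and was 2.02-fold lower (adjusted p = 0.0229). Mrpl20 had -1.42, -0.62 and -0.64 (adjusted p = 0.0271), with the first array the lowest. Mrpl13 had -0.57, -0.85 and -0.60 (adjusted p = 0.0344). Mrps36, named as a ribosomal protein but now known as a subunit of the alpha-ketoglutarate dehydrogenase complex of the citric acid cycle, had -0.57, -1.03 and -0.45 (adjusted p = 0.0440). All arrays were below 0 for each of these genes. The other 58 members did not pass the test. Hba-a1 and Hba-a2, haemoglobin genes that mark red blood cells, were also higher on the alpha arrays, with log2 ratios of 0.96 and 1.56; 5 markers of that cell type were tested and the other 3 did not pass. Of 7 muscle fibre markers tested, Acta1 (1.09) and Mb (1.30) were higher. The other fibre markers, Ckm (0.79), Ttn (0.76), Tnnt3 (0.61), Myh1 (0.08) and Pvalb (-0.88), did not pass. Of 4 Schwann cell and nerve markers S100b fell by 1.57. None of the endothelial, leukocyte, fibroblast or adipocyte markers tested passed. Their part in the result was not tested.

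**Figure D1:**
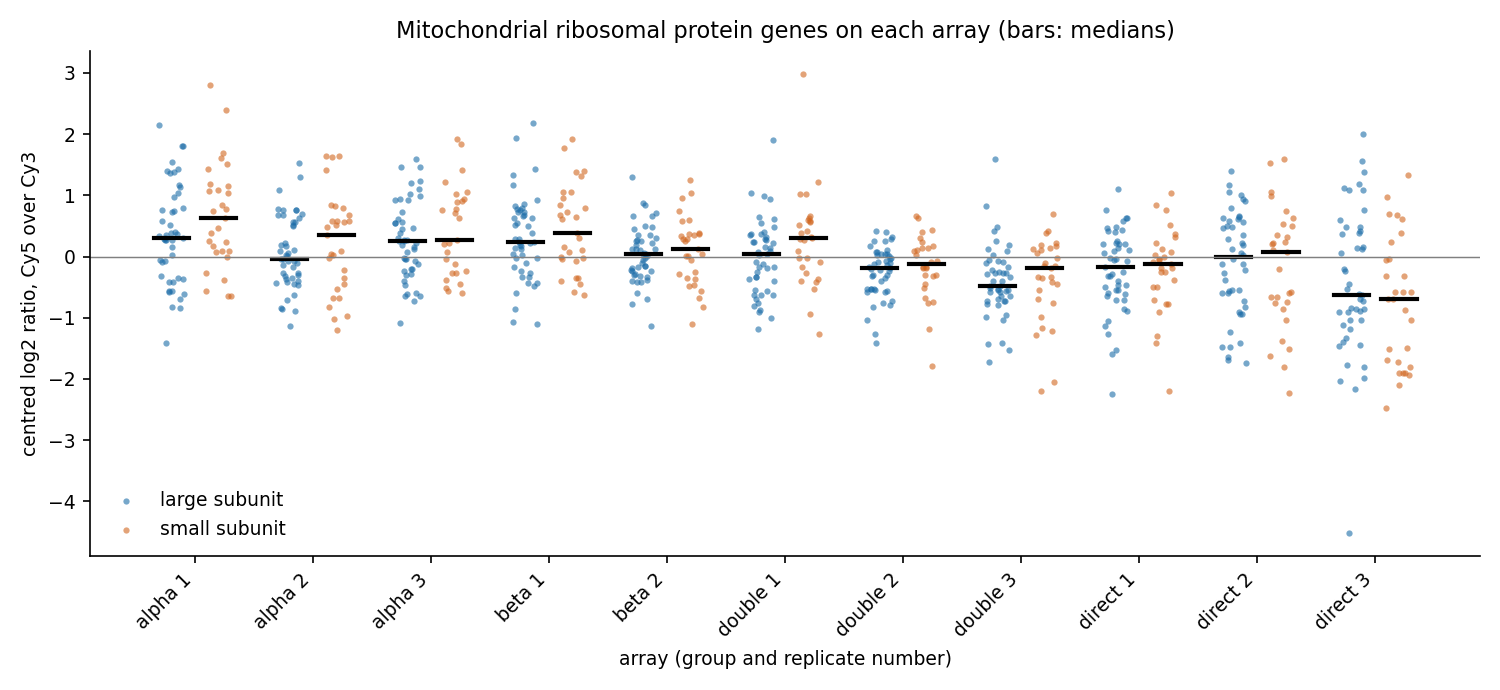
Each point is 1 mitochondrial ribosomal protein gene on 1 array, with the array on the x axis and the centred log2 ratio of knockout (Cy5) over reference (Cy3) on the y axis, and black bars mark the medians of the large and small subunit. The medians are highest on alpha 1 and lowest on direct 3, and on every array both subunits spread to either side of 0.

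On the arrays named PGC-1beta f/f/Mlc1fCre by their titles, 0 of 76 members passed limma's test, against 0.00851% of all genes tested (1 gene). Without adjustment, 1929 of the 11755 genes had a p under 0.05. Only 2 arrays carry this group. The median of the members was 0.17, against 0.05 for all genes. Mrpl15 had the highest mean, from log2 ratios of 2.18 and 0.84, and Mrpl41 the lowest, from -1.07 and -1.13 (adjusted p = 0.175 and 0.145). Mrps23 had 1.77 and 0.96, and Mrps11 0.96 and 1.24, again without passing (adjusted p = 0.0987 and 0.123). With array weights over all 12 arrays, 9 members were called (11.8%), close to the 11.7% of all genes.

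In the double knockout against floxed controls 2 of 76 members fell and none rose (2.63%), against 1.79% of all genes tested; the 74 others did not pass. This share is close to that of all genes. Mrps36 had log2 ratios of -1.26, -1.18 and -1.22, 3 nearly equal values, and was 2.33-fold lower (adjusted p = 0.0146). Mrpl12 had -0.63, -1.03 and -1.43, and was 2.04-fold lower (adjusted p = 0.0414). All 3 arrays were below 0 for both genes. Without any 1 of the 3 double arrays neither gene was called, and Mrpl12 passed in 6 of 24 alternatives against 13 of 24 for Mrps36. The median of the members was -0.17, against -0.02 for all genes tested. Mrps12, a protein of the decoding centre of the small subunit, had the highest mean (1.13, adjusted p = 0.332), which rests on 1 array: its log2 ratios were 2.99, 0.30 and 0.11.

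The respiratory chain, whose core subunits the mitochondrial ribosome makes, was set beside these counts. Of 77 nuclear respiratory chain and ATP synthase genes tested, 32 fell and 0 rose on the double arrays (median log2 ratio -0.92), where 2 of 76 members fell, Mrpl12 and Mrps36, the second now placed in a citric acid cycle complex. The difference between these lists was not tested. In the double knockout minus the PGC-1beta knockout, both taken against floxed controls, 0 of 76 members passed limma's test (0.00851% of all genes did; 906 genes had an unadjusted p under 0.05), with a median difference of -0.33.

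**Figure D2:**
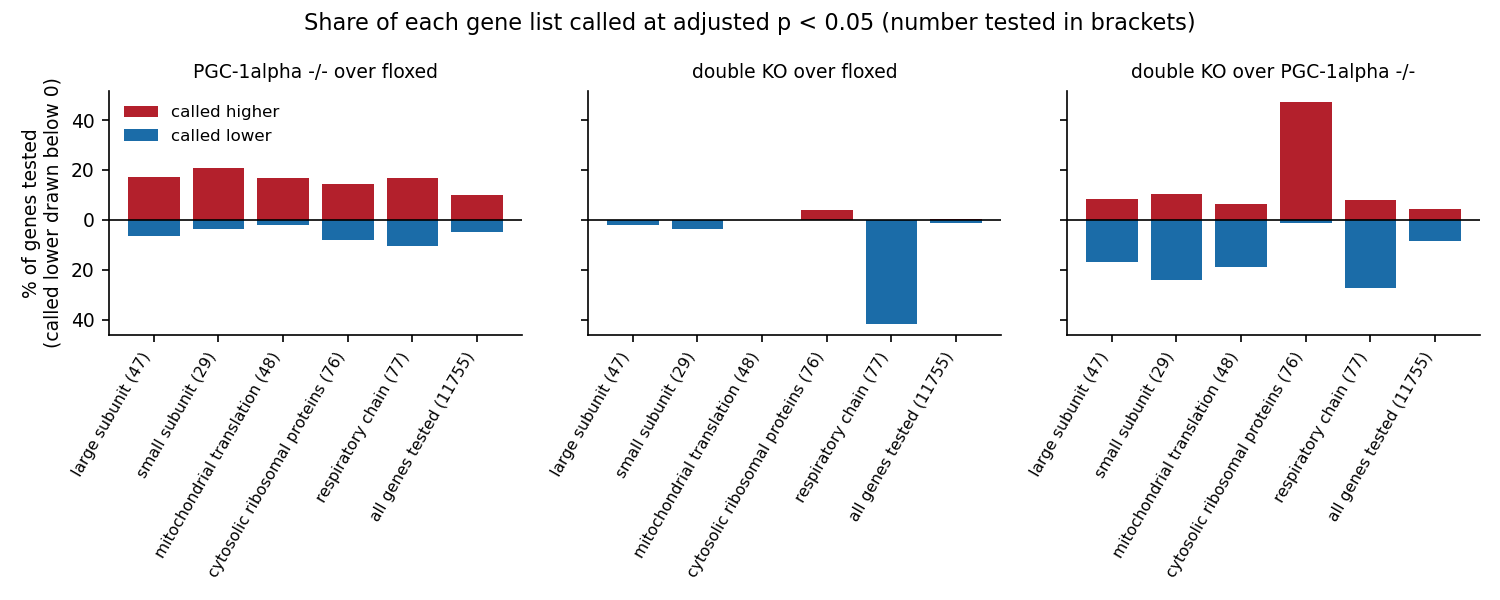
Bars give the percent of each gene list, on the x axis with the number tested, that was called higher (above 0) or lower (below 0) at an adjusted p under 0.05, in 3 panels for PGC-1alpha -/- over floxed, double knockout over floxed and double knockout over PGC-1alpha -/-. On the double arrays 41.6% of the respiratory chain genes were called lower, against 2.13% of the large and 3.45% of the small subunit.

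When the double knockout was set directly against PGC-1alpha -/- muscle, 22 of 76 members passed the test (28.95%), 15 lower and 7 higher, against 12.7% of all genes tested, of which 8.28% were lower and 4.46% higher. The median was -0.37, against -0.11 for all genes tested. Without centring, 20 members were lower and 0 higher (1825 and 42 of all genes), so the higher calls depend on centring. Before centring, the median gene had a log2 ratio of -1.76 on direct 3, against -0.10 on direct 1 and 0.01 on direct 2. PGC-1alpha -/- RNA is the knockout on the alpha arrays and the reference on the direct arrays, and whether it came from the same mice is not given. A gene high in that RNA on both would have a high alpha ratio and a low direct ratio. Values on both are given side by side here and are not to be read as independent of each other.

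The members that fell included several that were higher on the alpha arrays. Mrpl12 had log2 ratios of -1.59, -1.69 and -2.17 on the direct arrays and was 3.53-fold lower in the double knockout (adjusted p = 0.00295), the smallest adjusted p among the members on these arrays. Mrps23 had -1.30, -1.81 and -1.91 (3.18-fold lower, adjusted p = 0.00394), and both of its probes fell, by 1.79 and 1.37. Mrps11 had -1.41, -1.51 and -1.80 (2.98-fold lower, adjusted p = 0.00451). For these genes all 3 arrays lay below -1. Mrpl45 had -1.53, -1.47 and -1.99 (3.17-fold lower, adjusted p = 0.00460). Mrpl28 had -1.27, -1.74 and -1.46 (adjusted p = 0.00380), again with unlike probes, at -2.54 and -0.44. Mrpl37 (-1.12), Mrpl2 (-1.20), Mrps35 (-1.15) and Mrps7 (-1.06) fell as well.

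Mrpl46, found only in mitochondria, had the lowest mean, -2.42 ± 1.82 (SD, n = 3), or 5.37-fold lower (adjusted p = 0.0176). Its size rests on the third direct array: the log2 ratios were -1.13, -1.63 and -4.51. The last was also the lowest value of any gene tested on that array. Whether it lies at the floor of the deposited values was not tested, so the fold is uncertain. Its head-to-head neighbour Mrps11, whose start lies 41 bases away in the window printed above, fell by 1.57 without such an outlying array. On the alpha arrays Mrpl46 had 1.80, 0.68 and 1.46 but did not pass the test (adjusted p = 0.120). The spread used for that test is shared by all groups and so includes the third direct array. Mrps27, another small subunit protein found only in mitochondria, had -2.20, -2.23 and -1.50 on the direct arrays (3.93-fold lower, adjusted p = 0.0137); on the alpha arrays it had a value on only 2 arrays, 0.24 and 0.58. The other members that fell were Mrpl44 (-1.27), Mrpl58 (-0.68), which frees peptides from stalled ribosomes, Mrps5 (-1.42) and Mrps26 (-0.96).

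Higher in the double knockout than in PGC-1alpha -/- muscle were 7 members. Mrps18c, one of the proteins related to a single bacterial small subunit protein, had log2 ratios of 1.04, 1.59 and 0.67, or 2.14-fold (adjusted p = 0.0185). Mrps16 had 0.76, 1.05 and 1.33, or 2.07-fold (adjusted p = 0.0135). Mrps22, found only in mitochondria, had 0.84, 1.53 and 0.70, or 2.03-fold (adjusted p = 0.0150). Of the large subunit, Mrpl33 had 0.41, 1.17 and 1.09 (adjusted p = 0.0269), and Mrpl14 had 0.62, 0.90 and 1.09 (adjusted p = 0.0167). Mrpl54 had 0.75, 0.66 and 0.59 (adjusted p = 0.0326), the smallest change of the 7 with the closest arrays. Mrpl40 had 0.49, 0.57 and 1.11 (adjusted p = 0.0424), but of its 3 probes 1 gave 1.59 and the others 0.51 and 0.08. Against floxed controls these genes had log2 ratios of -0.02 to -0.71 on the alpha arrays, with none past the test per gene. With limma's test run on single probes, the tested probe of Mrpl33 passed there (-0.71, adjusted p = 0.0387). So did a probe of Mrps18c (-0.74, adjusted p = 0.0321) and a probe of Mrpl40 (-1.62, adjusted p = 0.0143). The other probes of Mrpl40 had 0.39 and 0.25, and that of Mrps18c -0.48, without passing.

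Values of other genes moved on the direct arrays too. Of 5 endothelial markers tested 3 fell (Cldn5 by 1.93, Cdh5 by 1.21 and Esam by 0.76), and 3 of 7 muscle fibre markers rose (Pvalb with a log2 ratio of 2.04, Acta1 with 1.86 and Tnnt3 with 1.37). The other fibre markers, Myh1 (-1.05), Ckm (-0.49), Ttn (-0.24) and Mb (0.03), did not pass, and the median of the 7 was 0.03. Their part in the result was not tested. Without direct 2 or direct 3, 6 and 7 members were called, and without both double 3 and direct 3 there were 7. The direct arrays fitted alone gave 0. These counts are not set beside the share of all genes, so they do not show whether the members stood out there.

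**Figure D3:**
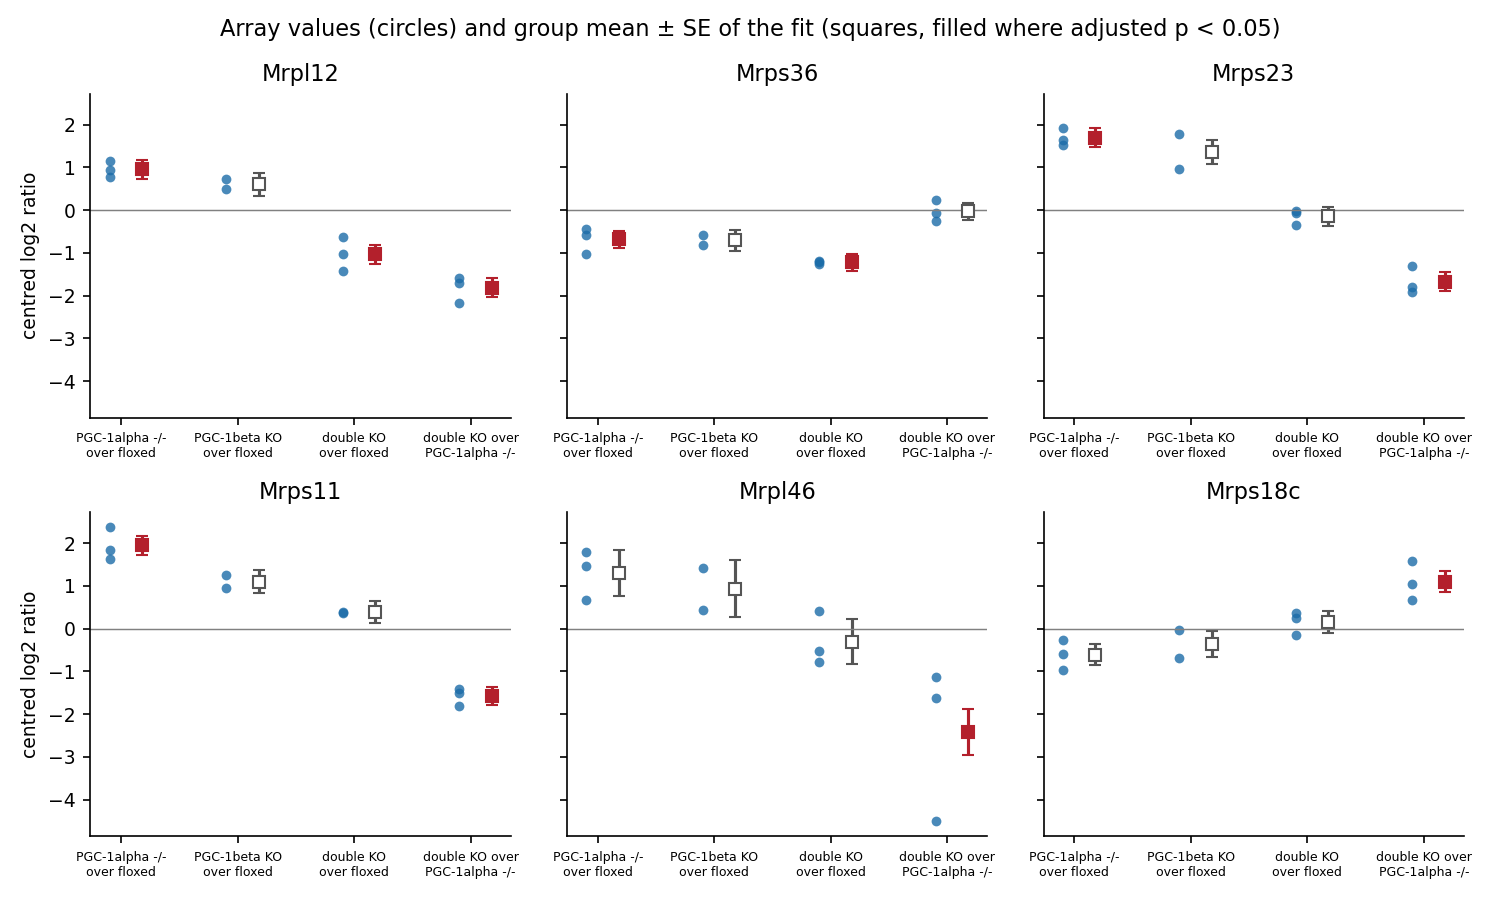
For 6 members each panel shows the log2 ratio on each array (circles) and the fitted group mean with its standard error (squares, filled where the adjusted p was under 0.05) in the 4 groups on the x axis. Mrpl12, Mrps23 and Mrps11 lie above 0 on the alpha arrays and below -1 on the direct arrays, Mrps36 is lowest on the double arrays, and the low mean of Mrpl46 comes with 1 array at -4.51.

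The direct ratio can be set against the same comparison taken through floxed controls, the double minus the alpha ratio. For the members the direct ratio exceeded it by a median of 0.21, against 0.05 for all genes tested and 0.66 for the respiratory chain, and 0 of 76 members differed by limma's test (0% of all genes; 437 of 11755 genes had an unadjusted p under 0.05). For Mrpl12 the direct ratio of -1.82 lay 0.16 above the estimate through controls, which combines -1.03 on the double and 0.95 on the alpha arrays. Since the knockout was always in Cy5, this difference is also the only measure of a dye effect in these data. When a dye effect was fitted for each gene, 4 members were called on the alpha arrays and 0 on the double and direct arrays.

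**Figure D4:**
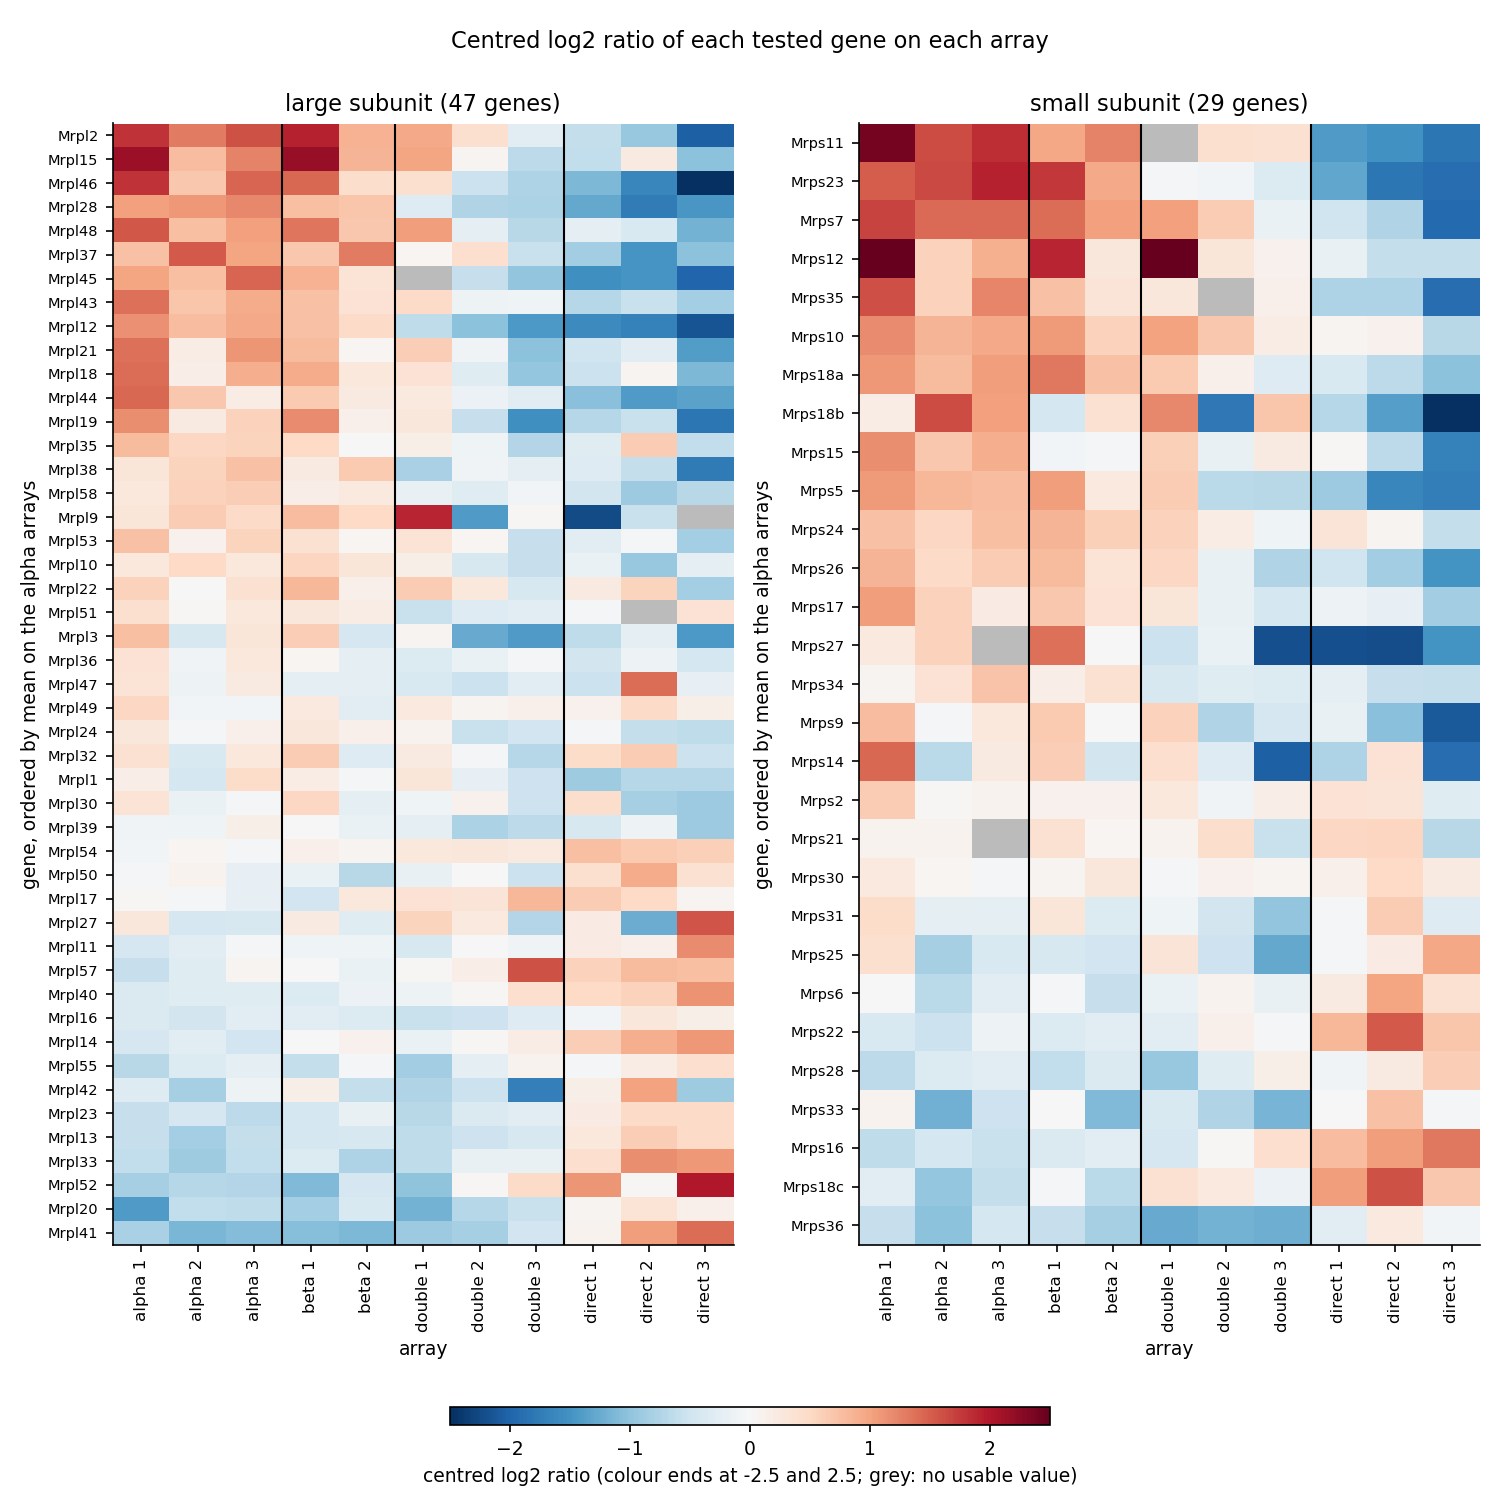
Each row is 1 tested gene and each column 1 array, in the order alpha, beta, double and direct separated by black lines, coloured by centred log2 ratio, with genes of each subunit ordered by their mean on the alpha arrays. Genes at the top of both panels are red on the alpha and blue on the direct arrays, where PGC-1alpha -/- RNA is the knockout and the reference. Mrps36 is blue on all 3 double arrays, and Mrps12 is dark red on alpha 1 and double 1.

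The values of the large and the small subunit overlapped on every array. On the alpha arrays the median log2 ratio was 0.14 over 47 large subunit and 0.38 over 29 small subunit genes, on the beta arrays 0.14 and 0.22, on the double arrays -0.19 and -0.06, and on the direct arrays -0.34 and -0.40. The difference between the medians, large minus small, ran from -0.39 to 0.06 over the 11 arrays and was below 0 on all but direct 3. Within each subunit the members spread far more than this: on the alpha arrays the quartiles of the large subunit were -0.25 and 0.71 and those of the small subunit -0.27 and 0.94. The large subunit's median on the alpha arrays was -0.02 with centring on the genes measured on all 11 arrays, so it has no settled direction. Calls fell on both subunits, with 8 higher and 3 lower of 47 large subunit genes and 6 higher and 1 lower of 29 genes named for the small subunit on the alpha arrays, the lower one being Mrps36. On the direct arrays 4 large subunit genes rose and 8 fell, and 3 small subunit genes rose and 7 fell. With Mrps18a and Mrps30, which sit in the large subunit despite their names, counted there, the medians on the alpha arrays were 0.14 and 0.38 again, while the difference was 0.00 on beta 2 and 0.0062 on double 2.

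The 45 tested members with a bacterial counterpart had a median log2 ratio of 0.32 on the alpha arrays, and the 31 found only in mitochondria 0.12. On the direct arrays the medians were -0.40 and -0.02, while calls were more frequent among the second kind, with 3 higher and 9 lower of 31, against 4 higher and 6 lower of 45. These splits were not tested.

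The shift of the whole set from array to array ran beside a property of the arrays. Probes with a usable value on all 11 arrays, 26.5% of all probes and 62.8% of the member probes, differed from the other probes in their median ratio. The median log2 ratio of the first kind minus that of the other was 1.08, 0.31 and 0.56 on the alpha arrays, 0.92 and 0.27 on the beta arrays, 0.83, -0.0055 and -0.82 on the double arrays, and -0.12, -0.02 and -1.33 on the direct arrays. The members' medians on the same arrays were 0.35, 0.04 and 0.26, then 0.29 and 0.05, then 0.09, -0.17 and -0.35, and last -0.15, 0.03 and -0.63. Both were highest on alpha 1 and lowest on direct 3. Among genes with a value on every array alone, 18 of 69 members were called on the alpha arrays (26.1%, against 19.1% of 8872 genes) and 22 of 69 on the direct arrays (31.9%, against 16.2%). The part of this property in the result was not tested.

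**Figure D5:**
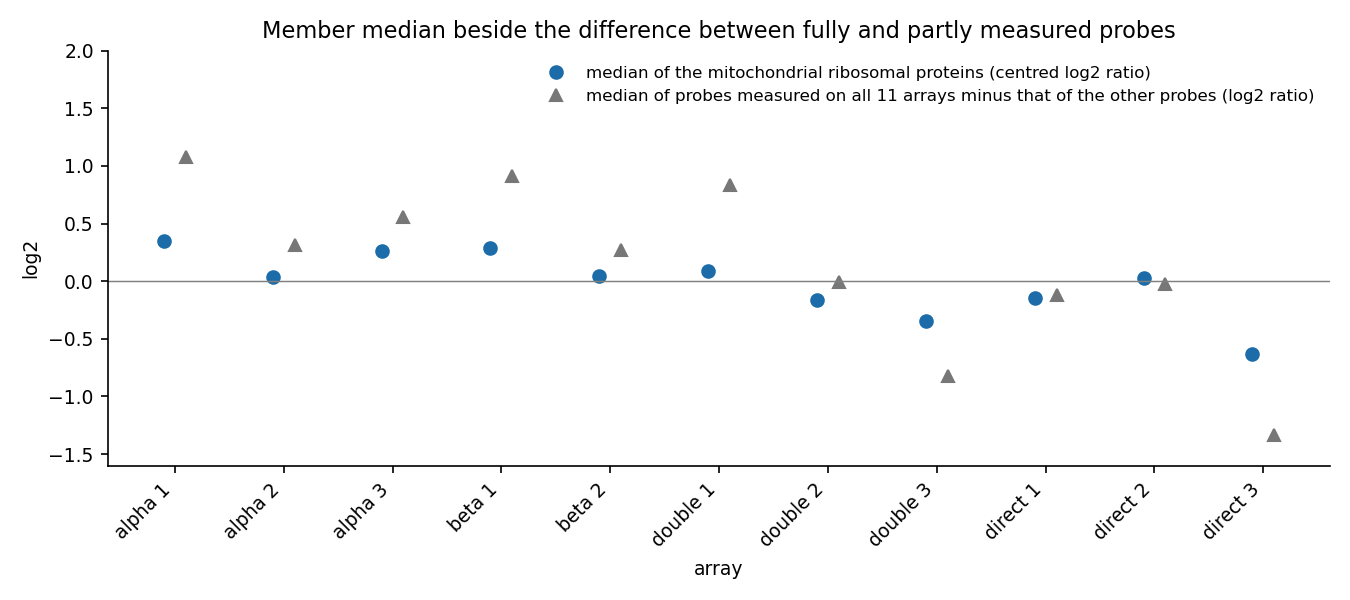
Circles give the median centred log2 ratio of the mitochondrial ribosomal proteins and triangles the median log2 ratio of probes measured on all 11 arrays minus that of the other probes, with the array on the x axis and log2 units on the y axis. Both are highest on alpha 1, at 0.35 and 1.08, and lowest on direct 3, at -0.63 and -1.33.

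Different probes of a member did not always tell the same. Over 34 members with at least 2 measured probes, the range between the probe means over the arrays had a median of 0.52, and it was over 1 for 5 of them. Means over all arrays can hide unlike probes within a group. For Mrpl28 this range was 0.14, but 1.46 on the alpha and 2.10 on the direct arrays. For Mrpl18 it was 0.69, but 2.41 on the alpha arrays. The widest ranges over all arrays were those of Mrpl41 (2.30), Mrpl3 (1.99) and Mrpl47 (1.96). For Mrpl41 and Mrpl47 this came from probes with a usable value on only 2 arrays each. The second probe of Mrpl41 was read only on direct 2 and direct 3, at 1.62 and 1.89, so it entered the direct mean and no other. The highest probe of Mrpl3 was read on 1 array only, beta 1, at 1.32. The other probes of Mrpl3 also differed, with means of -0.39, -0.09 and 1.14 on the alpha arrays. The 2 probes of Mrps7 gave -0.23 and -1.90 on the direct arrays, though both rose on the alpha arrays, by 1.20 and 1.81. No member had probes called in opposite directions in the same group.

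Other genes of mitochondrial translation, such as its factors, its tRNA synthetases and assembly proteins of its ribosome, were counted in the same way. Of 48 tested, 8 rose and 1 fell on the alpha arrays (18.75%, near the 14.9% of all genes), with a median of 0.42. The largest rises were in Kars, the lysyl-tRNA synthetase of cytosol and mitochondria (2.24), Noa1, a GTPase of mitochondrial ribosome assembly (1.60), Tufm, the elongation factor that brings tRNAs to the ribosome (1.31), Mtg1, another assembly GTPase (1.17), and Fars2, the phenylalanyl-tRNA synthetase (1.14). Gadd45gip1, itself a ribosomal protein under another name, fell by 1.35. On the direct arrays 3 rose and 9 fell (25%, against 12.7% of all genes), with a median of -0.49; Chchd1, also a ribosomal protein under another name, rose (1.10) and Noa1 fell by 1.56. On the beta and double arrays 0 of 48 passed limma's test. Of 76 cytosolic ribosomal protein genes tested, 11 rose and 6 fell on the alpha arrays (22.4%, close to the 23.7% of the mitochondrial ones). On the direct arrays 36 of them rose and 1 fell (48.7%, median 0.68), and on the double arrays 3 rose and 0 fell.

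The authors' own lists give mean ratios against floxed controls, without tests. The authors' deposited table of lowered genes holds 41 member probes of 33 genes and that of raised genes 35 probes of 30 genes; 12 members are in both and 27 in neither. Of the 41 member probes in the authors' deposited table of lowered genes, 32 had a double knockout ratio of 0.7 or less. Of the 35 in the authors' deposited table of raised genes, 32 had a PGC-1alpha -/- ratio of 2 or more. Per the labels, both tables were limited to a fold of 2 or more or 0.7 or less. These counts thus follow in part from how the rows were chosen. They are not set beside the share over all rows, so they do not show whether the members stood out. The lowest double knockout ratios in the authors' deposited tables were those of Mrpl1 (0.30), Mrpl38 (0.32), and Mrps25 and a probe of Mrps36 (0.41 each). The highest were those of Mrps12 (3.11), Mrpl52 (2.32) and Mrps15 (2.20). Of these, Mrps36 alone passed the test here on the double arrays; those ratios average linear values over arrays that are not centred, with dim probes kept. For Mrpl12, the authors' deposited table gives 2.04 for PGC-1alpha -/-, 1.49 for the PGC-1beta knockout and 0.48 for the double knockout.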

How the data were processed

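Gastrocnemius RNA was measured on 12 arrays with 2 dyes. The deposited value table holds 1 linear value per probe and array, which its values show to be a ratio of Cy5 over Cy3 scaled by 1 factor per array; how the authors corrected background, scanned and scaled is not given in the sources used here. The authors' deposited up and down tables hold mean ratios, limited to a fold of 2 or more or 0.7 or less per the labels.

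Values of 0 or below, the repeated maximum of an array, and ratios that equal the array factor times a quotient of integers from 1 to 10 (dim or equal signals) were left out. The last rule sees no signals, so it can err both ways. Between 50.2% and 78.1% of probes per array were usable; the number of arrays limits the precision. Log2 was taken, probes were averaged per gene, and arrays were centred on their median gene. Gene names came from the platform's annotation (32443 probes with 1 symbol, 44 with several, 8441 with none), and all 78 members matched RefSeq.

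limma 3.58.1 (R 4.3.3) fitted all 4 groups on 11 arrays with lmFit and eBayes, two-sided, with Benjamini-Hochberg adjustment over 11755 genes, called under 0.05. A gene needed 2 arrays in every group. Testing against 0 takes no account of variation among control mice. On simulated data, 92.5% to 98.5% of 200 genes shifted by a log2 of 2 were recovered over the 4 groups, with 0 to 40 false calls. There were 40 false calls on the double and 20 on the direct arrays, and 0 on the alpha and beta arrays. Smaller shifts, like those of most called members, were not simulated. Same-numbered deviations correlated at 0.12 to 0.47 among alpha, beta and double arrays, and at -0.32 to 0.32 with direct arrays, so whether the numbers pair all arrays is not settled, and the replicate block was an alternative. Members named are all those called where at most 10 moved one way and otherwise the largest 6, those called in several groups, and the extremes. The members and lists were chosen with earlier results of these data known. Alternatives covered the third beta array, dim ratios, centring, dye, weights, labels, probes, missing values and each array left out.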

Additional observations from a re-analysis of the deposited data

Results flagged for a closer look

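The third beta array, which no comparison uses, carried a signal outside the main measurement. The median of the members there was -2.56 over 72 genes, and 66 of them lay below 0, in a range of -5.09 to 2.39. Other lists were low on that array too: the median was -2.37 for the respiratory chain, -2.02 for cytosolic ribosomal proteins and -0.58 for all genes tested, and the median of probes measured on all 11 other arrays minus that of the remaining probes was -3.09. On those 11 arrays the members' median lay between -0.63 and 0.35. Groups of 3 arrays are too small for a test of single outlying samples.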

How the results depend on the processing

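Every called member kept its direction under each alternative that gave it a value. For the named members, 482 comparisons of a setting with the reported value kept their side of the threshold and 306 lost the call. The count of members called on the alpha arrays was 18 (23.7%, against 14.9% of all genes). It was 1 with the third beta array kept (1.32%, against 1.11%) and 1 without centring (1.32%, against 1.56%). On the table as deposited it was 0, against 0.0236% of all genes. It was 4 with a dye term (5.26%, against 4.71%) and 36 with array weights on 12 arrays (47.4%, against 37.6%). With groups by channel label it was 1 (1.32%, against 1.19%). It was 6 with the alpha arrays alone and 2 to 22 with single arrays left out. On the beta arrays (0) the count was 9 with array weights (11.8%, against 11.7% of all genes). On the double arrays the count was 2 (2.63%, against 1.79% of all genes). It was 0 with the third beta array kept (0.149% of all genes), dim ratios kept (0.436%) and no centring (0.315%). It was also 0 on the table as deposited (0%), with a dye term (0.00851%) and with groups by channel label (0.139%). The double arrays alone gave 0, as did leaving out double 3 and direct 3 (chosen after seeing the data). Single arrays left out gave 0 to 2. On the direct arrays the count was 22 (28.95%, against 12.7% of all genes). It was 1 with the third beta array kept (1.32%, against 0.938%) and 13 with dim ratios kept (16.7%, against 6.38%). On the table as deposited and with groups by channel label it was 0 (0% of all genes). With a dye term it was 0, against 0.0851% of all genes. Without centring it was 20, all lower (26.3%, against 15.9%). It was 7 without double 3 and direct 3, 0 with the direct arrays alone and 6 to 25 with single arrays left out. In this paragraph, counts for a group's arrays alone and for arrays left out are not set beside the share of all genes. Those counts do not show whether the members stood out there. The cause of these changes in count was not tested. The large subunit's median on the alpha arrays was -0.02 with centring on fully measured genes. With dim ratios kept, the large subunit's median was 0.33 on the alpha and 0.38 on the beta arrays. With the third beta array kept, the beta medians were -0.82 for the large and -0.46 for the small subunit. Without centring the direct medians were -0.96 for the large and -1.02 for the small subunit. The replicate block gave 24 members on the alpha arrays (31.6%, against 19.5% of all genes) and 27 on the direct arrays (35.5%, against 16.8%). It gave 2 on the double arrays (2.63%, against 2.32%) and 0 on the beta arrays (0% of all genes). It moved none of these counts by over 1.5 times.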
